A study of Mus musculus with 12 samples.

Results

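CAR (Nr1i3) and PXR (Nr1i2), the 2 xenobiotic-sensing nuclear receptors of the liver, were followed together with their cytochrome P450 target families Cyp2b and Cyp3a and with Por, the electron donor that those enzymes share. The genes were Nr1i2, Nr1i3, Cyp2b9, Cyp2b10, Cyp2b13, Cyp3a11, Cyp3a13, Cyp3a25, Cyp3a44 and Por, 10 of 19340 genes tested. Every non-control spot that the array files name for 1 of these 10 genes was used, which gave 15 probes of the 28842 tested, out of 41174 non-control probes on the array. Liver RNA came from adrenalectomized C57BL/6 mice aged 11 weeks, so every group, PBS included, lacked the adrenal source of corticosterone. The groups were males given dexamethasone, males given phosphate-buffered saline (PBS), females given dexamethasone and females given PBS, with 3 animals in each and 1 animal on each 1-colour array. Dexamethasone, a synthetic glucocorticoid, was injected intraperitoneally at 1 mg/kg and livers were taken after 6 h. Females were in diestrus. The dose and the time were single points, so no course over either can be read.

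CAR and PXR bind foreign chemicals and some steroids, pair with the retinoid X receptor (RXR), and switch on enzymes and transporters that clear such compounds. CAR is held in the hepatocyte cytosol by a chaperone complex until it is released to the nucleus. Cyp2b10 is the standard mouse target of CAR, and Cyp3a11 that of PXR. Dexamethasone binds the glucocorticoid receptor and, at high concentrations, also activates mouse PXR. In mouse liver, Cyp2b9, Cyp2b13 and the Cyp3a41 and Cyp3a44 genes are known as female-predominant.

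Values below are log2 signals relative to the array's 75th percentile, so that 0 is the upper quartile of an array and 1 unit is a doubling. A level belongs to its probe and is not set against the level of another probe. Differences are given ± standard error from limma, and a probe was called at a Benjamini-Hochberg adjusted p under 0.05 over all 28842 probes. The 12 arrays had 75th percentiles of 578 to 1251 intensity units. Between 65.1 and 71.8% of their probes stood well above background. Arrays of the same group correlated at 0.983 to 0.994. Xist and the Y-linked genes matched the labelled sex on all 12 arrays. The number of arrays, 3 in each group, limits the precision. In a check of the treatment, all 7 glucocorticoid-response genes tested rose in males and 5 of 7 rose in females, among them Fkbp5 (4.45 ± 0.42 in males, adjusted p = 0.000151, and 3.86 ± 0.42 in females, adjusted p = 0.000556). Over all genes, 22.5% were called in males and 13.7% in females.

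Defining markers of hepatocytes were high on every array, as the label liver requires. Their summed signal, over 8 genes and in multiples of the array's 75th percentile, was 2150 to 2470 in dexamethasone males and 1600 to 1690 in PBS males. It was 1900 to 2010 in dexamethasone females and 1510 to 1700 in PBS females. Of these 8 markers, 6 rose in males and 3 in females, beside 10.4% and 6.78% of all genes. B cell markers (6 tested) summed to 0.264 to 0.435 in dexamethasone males and 0.818 to 1.25 in PBS males, and 3 of them fell in each sex. Stellate cell and fibroblast markers (6 tested) summed to 6.85 to 11.6 in dexamethasone males and 12.5 to 22.0 in PBS males, and 3 fell in males. Over all genes, 12.1% fell in males and 6.88% in females. The part of these shifts in the results below was not tested, and in whole liver fewer cells of a type and less RNA per cell cannot be told apart.

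Most of these genes belong to 2 tandem families, and that sets what a probe can measure. By the design's mm7 coordinates, the Cyp2b probes lie on chromosome 7 and the Cyp3a and Por probes on chromosome 5, Nr1i3 on chromosome 1 at 171187738 to 171187797 and Nr1i2 on chromosome 16 at 37955460 to 37955519. Gene models of mm7 were not used, so exon positions are not given. Of the 6 Cyp2b probes, the design lists transcripts of both Cyp2b9 and Cyp2b10 for Cyp2b9 probe A_51_P467076, and of Cyp2b13, Cyp2b9 and Cyp2b10 for Cyp2b13 probe A_51_P492339. It lists Cyp2b9 alone for A_52_P256914 and Cyp2b13 alone for A_52_P289091. Cyp2b10 probe A_52_P472486 is listed for Cyp2b10 and for a further transcript not matched to a gene symbol. Cyp2b10 probe A_51_P182362, whose design coordinates span 8671 bases, is listed for that unmatched transcript alone. The Cyp3a11 probe A_51_P355301 is listed for Cyp3a11, Cyp3a41a and Cyp3a44. Sequences of 3 probes that carry the comparisons are shown. In the first, whose design coordinates span 6056 bases at chr7:22986378-22992433 (mm7, plus strand), capitals mark the codons of the heme-binding signature that cytochromes P450 share. The second, at chr7:23095303-23095362 (mm7, plus strand), is listed for a single Cyp2b gene, and the third lies within chr5:144750340-144752207 (mm7, minus strand).
Cyp2b13 probe A_51_P492339: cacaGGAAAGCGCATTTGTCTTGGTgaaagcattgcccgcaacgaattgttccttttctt
Cyp2b9 probe A_52_P256914: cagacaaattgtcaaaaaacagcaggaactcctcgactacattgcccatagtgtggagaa
Cyp3a11 probe A_51_P355301: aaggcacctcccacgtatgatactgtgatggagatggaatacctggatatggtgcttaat

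The same closeness holds at the start sites. Windows of 250 bases before to 50 bases after the start of each gene were found for all 10 genes in RefSeq (GRCm38.p6). Those of Cyp2b9 (chr7:26173159-26173458, plus strand) and Cyp2b13 (chr7:26061245-26061544, plus strand) differed at 2 of 300 positions, an identity of 99.3%, and capitals mark these positions. The window of Cyp2b10 (chr7:25897408-25897707, plus strand) was 71.7% identical to each of them, with gaps counted.
Cyp2b9: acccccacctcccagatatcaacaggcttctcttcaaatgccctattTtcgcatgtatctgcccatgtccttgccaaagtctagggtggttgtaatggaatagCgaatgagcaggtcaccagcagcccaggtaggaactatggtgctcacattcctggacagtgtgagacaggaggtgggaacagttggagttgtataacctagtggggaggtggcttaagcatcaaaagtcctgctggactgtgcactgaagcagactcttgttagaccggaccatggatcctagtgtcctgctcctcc
Cyp2b13: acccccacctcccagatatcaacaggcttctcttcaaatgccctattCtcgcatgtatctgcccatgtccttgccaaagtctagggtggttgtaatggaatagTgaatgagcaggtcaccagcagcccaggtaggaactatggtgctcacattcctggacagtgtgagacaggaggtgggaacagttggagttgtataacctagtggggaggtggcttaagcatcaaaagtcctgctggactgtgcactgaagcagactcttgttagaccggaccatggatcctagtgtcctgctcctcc
Cyp2b10: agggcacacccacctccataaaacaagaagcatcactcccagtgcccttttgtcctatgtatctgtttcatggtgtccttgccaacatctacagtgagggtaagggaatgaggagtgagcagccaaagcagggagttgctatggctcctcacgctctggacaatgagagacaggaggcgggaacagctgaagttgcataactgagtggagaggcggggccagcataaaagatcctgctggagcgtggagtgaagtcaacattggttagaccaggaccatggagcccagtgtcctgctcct
For the Cyp3a family, the window of Cyp3a11 (chr5:145879805-145880104, minus strand), the standard PXR target, is shown. Capitals mark the nuclear receptor half-sites AGGTCA and AGTTCA and the glucocorticoid receptor half-site TGTTCT, on either strand.
Cyp3a11: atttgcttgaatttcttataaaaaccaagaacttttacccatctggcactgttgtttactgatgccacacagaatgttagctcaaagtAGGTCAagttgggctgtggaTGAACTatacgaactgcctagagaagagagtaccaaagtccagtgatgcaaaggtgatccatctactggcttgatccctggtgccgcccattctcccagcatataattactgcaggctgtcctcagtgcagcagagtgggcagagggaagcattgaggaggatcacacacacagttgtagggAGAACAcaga
AGGTCA occurred, among others, in the windows of Cyp2b9, Cyp2b13, Cyp3a11 and Cyp3a25, and in 16% of 27025 promoter windows of all genes. AGTTCA occurred in that of Cyp3a11, and in 14% of all. TGTTCT occurred in those of Nr1i2, Cyp3a11 and Cyp3a25, and in 19% of all. The Cyp2b10 window held none of these 3 half-sites. Searched on both strands, direct repeats of AGGTCA with 3 or 4 bases between the copies were in none of the 10 windows, and in 0.0074% and 0.0111% of all. The glucocorticoid receptor palindrome, AGAACA and TGTTCT with 3 bases between, was in none of the 10 and in 0.0037% of all. The everted repeat, TGAACT and AGGTCA with 6 bases between, was in none of the 10 and in 0 of the 27025 windows. A match is letters alone and not a binding site. The enhancer through which CAR is known to act on Cyp2b10 lies farther upstream than these windows.

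In males the 2 receptor genes moved in opposite directions. Nr1i3, which encodes CAR, fell in both sexes, by 1.30 in males and by 0.82 in females on the log2 scale. Nr1i3 read 1.55, 1.07 and 1.65 in dexamethasone males and 2.70, 2.56 and 2.90 in PBS males. It read 2.26, 2.35 and 2.35 in dexamethasone females and 3.42, 2.97 and 3.04 in PBS females. In each sex every dexamethasone array lay below every PBS array. The loss was 2.46-fold in males (−1.30 ± 0.18, adjusted p = 0.000925) and 1.76-fold in females (−0.82 ± 0.18, adjusted p = 0.0138). Within slides it was −1.63 and −0.96 in males (slides 1 and 3) and −0.62 and −1.11 in females (slides 1 and 2), and with slide as a block the adjusted p were 0.00395 and 0.0249. The female call was lost without female PBS array 1 (−0.68, adjusted p = 0.0538) and with normexp background correction (−0.95, adjusted p = 0.0513).

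Nr1i2, which encodes PXR, was called higher in males, and its female values also lay higher under dexamethasone. Its values were 4.38, 4.39 and 4.29 in dexamethasone males and 3.20, 3.80 and 4.00 in PBS males, with 4.22, 4.43 and 4.35 in dexamethasone females and 3.74, 3.80 and 3.83 in PBS females. All 6 dexamethasone arrays lay above all 6 PBS arrays, and the lowest array was male PBS 1. The difference was 0.69 ± 0.18 in males (1.61-fold, adjusted p = 0.0207) and 0.54 ± 0.18 in females (95% interval 0.14 to 0.94, adjusted p = 0.0718). The male call was lost without male PBS array 1 (0.45, adjusted p = 0.0545), male dexamethasone array 1 (0.67, 0.0531) or male dexamethasone array 2 (0.67, 0.0589), with normexp (0.48, 0.361), and in a fit of the male arrays alone (0.69, 0.0654). The female difference did pass without male PBS array 1 (adjusted p = 0.0177), so which sex was called depended on that array. The effects in the sexes were not shown to differ for Nr1i2 (−0.14 ± 0.26, adjusted p = 1) or for Nr1i3 (0.48 ± 0.25, adjusted p = 0.954), where the difference is the female effect minus the male effect.

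**Figure D1:**
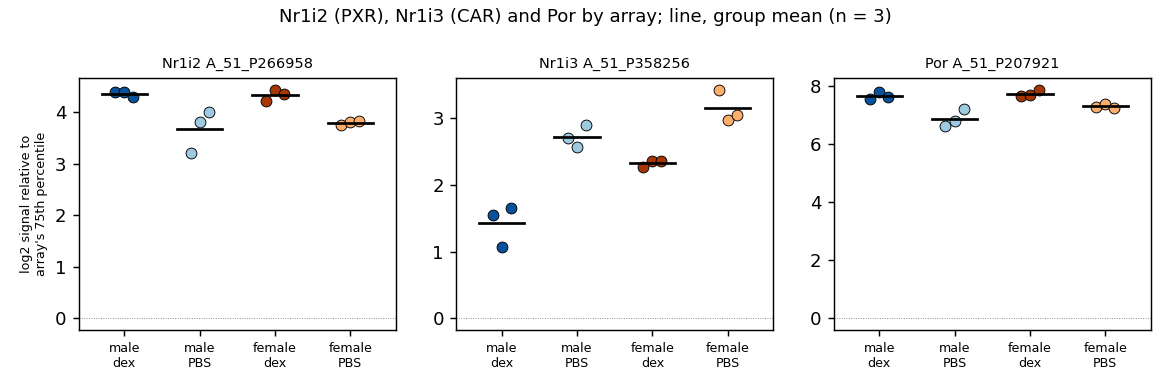
Log2 signal of Nr1i2, Nr1i3 and Por relative to each array's 75th percentile (vertical axis), for 3 arrays in each of male dexamethasone, male PBS, female dexamethasone and female PBS (points, with the group mean as a line). Nr1i3 is lower on all dexamethasone arrays than on the PBS arrays of the same sex, and Nr1i2 is higher on all 6 dexamethasone arrays than on all 6 PBS arrays.

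Cyp2b10, which encodes the phenobarbital-inducible P450 used as the readout of CAR, rose in both sexes at both of its probes. Probe A_52_P472486 read 3.84, 3.73 and 3.53 in dexamethasone males and −0.51, −1.19 and −1.23 in PBS males. It read 4.69, 4.61 and 5.45 in dexamethasone females and 1.52, 1.18 and 1.55 in PBS females. The 4 groups did not overlap and ran, from high to low, dexamethasone females, dexamethasone males, PBS females and PBS males. The rise was 25.5-fold in males (4.67 ± 0.25, adjusted p = 1.2e-05) and 11.3-fold in females (3.49 ± 0.25, adjusted p = 0.000101). Within slides it was 4.23 and 4.87 in males and 3.42 and 3.54 in females. The second probe, A_51_P182362, gave 22-fold in males (4.46 ± 0.27, adjusted p = 1.93e-05) and 6.46-fold in females (2.69 ± 0.27, adjusted p = 0.000394). All 4 of these Cyp2b10 calls held in every alternative in which the probe was tested, the lowest estimate being 4.08 in males and 2.46 in females.

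Cyp2b9, which encodes a steroid-metabolizing P450 of the female liver, rose in males. At the probe listed for it alone, A_52_P256914, values were 1.52, 1.35 and 1.21 in dexamethasone males and −0.62, −3.22 and −3.21 in PBS males. They were 3.23, 3.08 and 3.81 in dexamethasone females and 2.57, 2.76 and 2.21 in PBS females. Dexamethasone arrays lay above PBS arrays in both sexes, and dexamethasone males stayed below both female groups. The rise in males was 13.1-fold (3.71 ± 0.56, adjusted p = 0.00144), 1.97 and 4.59 within slides 1 and 3. In females the difference was 0.86 ± 0.56 (95% interval −0.38 to 2.11, adjusted p = 0.352). It passed without male PBS array 1 (adjusted p = 0.0271). The probe shared with Cyp2b10, A_51_P467076, gave 3.69 ± 0.53 in males (adjusted p = 0.00107) and 0.42 ± 0.53 in females (adjusted p = 0.659).

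The 2 probes named for Cyp2b13, which encodes another female-predominant P450, did not give the same answer in males. The probe shared with Cyp2b9 and Cyp2b10, A_51_P492339, whose sequence is shown above with its heme-binding codons, read 4.46, 4.54 and 4.13 in dexamethasone males and 1.31, −0.30 and −0.47 in PBS males. This was a rise of 18.3-fold (4.20 ± 0.39, adjusted p = 0.000134). In females it read 5.71, 5.77 and 6.34 under dexamethasone and 5.10, 5.08 and 5.13 under PBS (0.84 ± 0.39, adjusted p = 0.182). This female difference passed without male PBS array 1 (adjusted p = 0.0185). The probe listed for Cyp2b13 alone, A_52_P289091 (chr7:22992625-22992684, mm7), read −6.41, −4.48 and −6.20 in dexamethasone males and −2.54, −5.44 and −5.74 in PBS males. Male dexamethasone array 1 was not well above background there. No rise was seen in males at this probe (−1.13 ± 0.73, 95% interval −2.74 to 0.49, adjusted p = 0.305), and normexp turned the sign (0.46). In females it read 3.75, 3.95 and 4.02 under dexamethasone and 5.04, 4.85 and 5.23 under PBS. Each dexamethasone female lay below each PBS female, but the difference did not pass (−1.13 ± 0.73, adjusted p = 0.347). In a fit of the female arrays alone it passed (adjusted p = 0.0157). The rise in males was thus measured at the shared probe and not at the probe listed for Cyp2b13 alone.

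**Figure D2:**
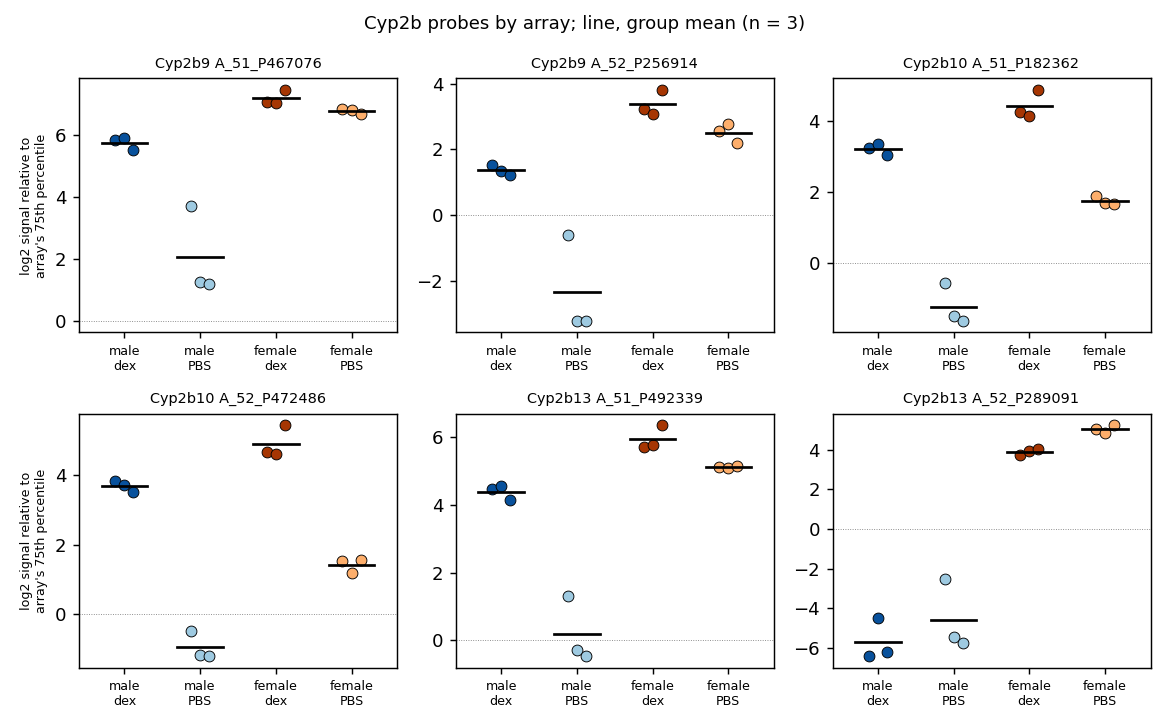
Log2 signal of the 6 Cyp2b probes relative to each array's 75th percentile (vertical axis, with its own range in each panel), for 3 arrays in each of male dexamethasone, male PBS, female dexamethasone and female PBS (points, with the group mean as a line). In 5 panels male dexamethasone lies far above male PBS, while at A_52_P289091 both male groups lie below −2 and both female groups above 3.

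One control animal stood apart on these probes. Male PBS array 1 was the highest of the 3 PBS males at all 6 Cyp2b probes, and it exceeded both others by at least 1 log2 unit at 4 of them, both Cyp2b9 and both Cyp2b13 probes. Over all 28842 probes, 226 (0.784%) stood that far above on this array, against 0.198 to 0.388% on the other PBS males and up to 2.53% on arrays of the other groups. At the female-predominant Cyp3a44 probe A_52_P366803 it read −5.49, between the −5.30 and −5.77 of the other PBS males. Without this array the male effects were larger, 4.52 at A_51_P467076, 4.58 at A_52_P256914 and 4.76 at A_51_P492339. All groups shared an estimate of spread, so the female tests changed too. The female differences at A_52_P256914 and A_51_P492339 then passed (adjusted p = 0.0271 and 0.0185), and that at A_51_P467076 did not.

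Under both treatments females were above males at most Cyp2b probes. Under PBS the female excess was 4.86 ± 0.56 for Cyp2b9 at A_52_P256914 (29.1-fold, adjusted p = 0.00121) and 2.40 ± 0.25 for Cyp2b10 at A_52_P472486 (5.27-fold, adjusted p = 0.000639). On slides 1, 2 and 3 these were 3.38, 5.78 and 5.43 for Cyp2b9 and 1.69, 2.76 and 2.74 for Cyp2b10. Under dexamethasone the same probes gave 2.02 ± 0.56 (adjusted p = 0.0665) and 1.22 ± 0.25 (adjusted p = 0.0224). Slide 1, the only one with both dexamethasone sexes, gave 1.74 and 0.88, and with slide as a block the Cyp2b10 difference did not pass (adjusted p = 0.179). At the Cyp2b13 probe A_52_P289091 the excess was 9.61 ± 0.73 under either treatment (adjusted p = 7.28e-05 under dexamethasone and 6.76e-05 under PBS). Male signals there were so low that the size depends on the background correction, and no fold is given. Over the alternatives it was 6.27 to 10.22 under dexamethasone and 8.05 to 10.63 under PBS, with normexp the lowest in both and the call kept in all. The 10.22 was without male dexamethasone array 2 and the 10.63 without male PBS array 1. Slide 1 gave 8.43 under dexamethasone, and slides 1, 2 and 3 gave 7.39, 10.77 and 10.67 under PBS. Of the 15 probes, 6 were called under dexamethasone, beside 5.08% of all probes, and all 6 were higher in females, beside 2.87%. Under PBS 7 were called, beside 1.72%, and all 7 were higher in females, beside 0.596%. The number under dexamethasone was 2 with slide as a block, with normexp or without male dexamethasone array 2, and 3 without male dexamethasone array 3 or female dexamethasone array 1. Nr1i3 was among the 6 (0.90 ± 0.18, adjusted p = 0.0178, and 0.128 with slide as a block), with 0.42 ± 0.18 under PBS (adjusted p = 0.348).

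The response at the Cyp2b probes was smaller in females than in males by estimate. The female effect minus the male effect was −3.27 ± 0.74 at A_51_P467076 (adjusted p = 0.448), −2.85 ± 0.80 at A_52_P256914 (0.591), −1.77 ± 0.39 and −1.18 ± 0.36 at the Cyp2b10 probes A_51_P182362 and A_52_P472486 (0.446 and 0.672), and −3.36 ± 0.54 at A_51_P492339 (0.205). At A_52_P289091 it was −0.01 ± 1.04. None of the 15 probes was called in limma, beside 0.00347% of all probes. An unadjusted limma p under 0.05 was found for 5 of 15, beside 1629 of all 28842 probes. Without male PBS array 1, 3 were called, A_51_P467076 (−4.10, adjusted p = 0.000316), A_52_P256914 (−3.71, 0.00295) and A_51_P492339 (−3.92, 0.00104). With no filter on dim probes, 3 were also called, A_51_P182362 (adjusted p = 0.0311), A_51_P467076 (0.0318) and A_51_P492339 (0.0311). That setting also called far more probes over the whole array than the main fit. The counts over all probes in both settings are given below.

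No Cyp3a probe passed the test for dexamethasone in either sex. Cyp3a11, which encodes the main PXR-inducible P450 of mouse liver, read 7.62, 6.70 and 7.53 in dexamethasone males and 7.03, 6.92 and 7.29 in PBS males. It read 7.85, 7.70 and 8.26 in dexamethasone females and 7.98, 7.81 and 7.16 in PBS females. The groups overlapped in both sexes. Within slides the difference was −0.33 and 0.65 in males and −0.11 and 0.07 in females. Over all arrays the differences were 0.20 ± 0.28 in males (95% interval −0.41 to 0.82, adjusted p = 0.662) and 0.29 ± 0.28 in females (−0.33 to 0.90, adjusted p = 0.554). The upper ends of these intervals, 0.82 and 0.90, lie below the Cyp2b10 differences at A_52_P472486, 4.67 and 3.49. The design lists this probe for Cyp3a41a and Cyp3a44 too, and how much each transcript adds to its signal was not tested.

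Cyp3a13, a Cyp3a gene at a distance from the main cluster, differed by 0.28 ± 0.31 in males (adjusted p = 0.566) and 0.42 ± 0.31 in females (adjusted p = 0.415). Male dexamethasone array 3 read 5.74 there, against 4.48 to 4.73 on the other 5 male arrays, and without it the male difference was −0.10. Cyp3a25 differed by −0.34 ± 0.21 and −0.66 ± 0.29 in males at its 2 probes (adjusted p = 0.289 and 0.13), and by 0.08 ± 0.21 and 0.05 ± 0.29 in females (0.847 and 0.939). Male dexamethasone array 2 was the lowest array at both probes.

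Of the 2 Cyp3a44 probes, 1 separated the sexes. A_52_P366803 (chr5:144587558-144587617, mm7), listed for Cyp3a44 alone, read −4.67, −5.33 and −4.33 in dexamethasone males and −5.49, −5.30 and −5.77 in PBS males. It read 3.83, 3.49 and 4.37 in dexamethasone females and 3.77, 4.49 and 1.26 in PBS females. Every female lay above every male by at least 5 log2 units. The female excess was 8.68 ± 0.65 under dexamethasone (adjusted p = 6.68e-05) and 8.69 ± 0.65 under PBS (adjusted p = 6.28e-05). It was called in every alternative run, but its size moved, from 6.06 with normexp to 8.90 under dexamethasone and from 6.53 with normexp to 9.65 under PBS. The PBS value was 9.65 without female PBS array 3 and 8.03 without female PBS array 2. Slide 1 gave 8.82 under dexamethasone, and slides 1, 2 and 3 gave 9.98, 9.54 and 6.55 under PBS. The treatment differences were 0.74 ± 0.65 in males and 0.73 ± 0.65 in females (adjusted p = 0.463 and 0.517), and the female one was −0.23 without female PBS array 3. The other probe, A_52_P571006 (chr5:144587795-144587854, mm7), is listed for Cyp3a44 and for a further transcript not matched to a gene symbol. It read 6.92, 6.49 and 6.87 in dexamethasone males and 6.29, 6.29 and 6.41 in PBS males, without overlap. In females it read 6.97, 6.70 and 7.21 under dexamethasone and 6.96, 6.76 and 6.44 under PBS, with overlap. It differed between dexamethasone and PBS by 0.43 ± 0.18 in males and by 0.24 ± 0.18 in females (adjusted p = 0.113 and 0.436). Its female excess was 0.20 ± 0.18 under dexamethasone and 0.39 ± 0.18 under PBS (adjusted p = 0.562 and 0.392). In the mm7 design coordinates the file's Cyp3a41 probe (144587472 to 144587531) lies at the same locus as both Cyp3a44 probes. It read 8.68, 8.66 and 8.68 in dexamethasone females and 7.93, 7.78 and 8.01 in dexamethasone males. Under PBS it read 8.54, 8.37 and 7.70 in females and 7.42, 7.32 and 7.50 in males. The female excess at this Cyp3a41a probe was 0.77 ± 0.19 under dexamethasone (adjusted p = 0.0432) and 0.79 ± 0.19 under PBS (adjusted p = 0.0742), and the sexes did not overlap under either treatment.

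**Figure D3:**
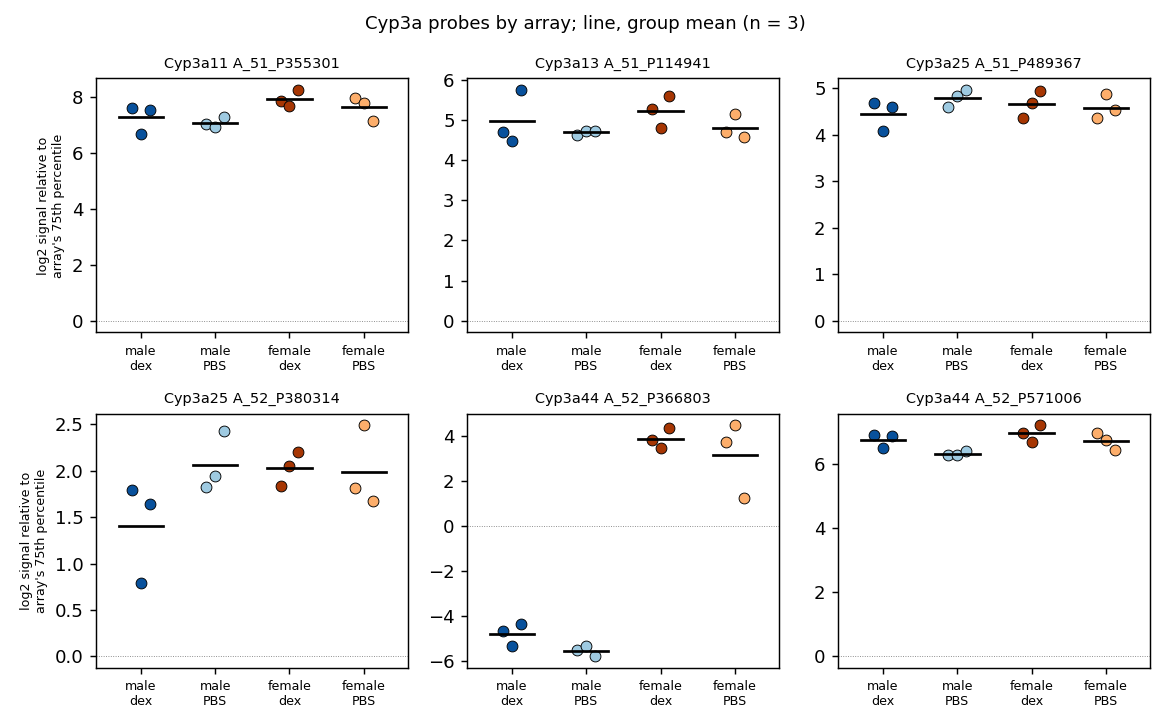
Log2 signal of the 6 Cyp3a probes relative to each array's 75th percentile (vertical axis, with its own range in each panel), for 3 arrays in each of male dexamethasone, male PBS, female dexamethasone and female PBS (points, with the group mean as a line). At Cyp3a44 A_52_P366803 all females lie above 1 and all males below −4. At the other probes the groups lie closer together, and at Cyp3a44 A_52_P571006 every dexamethasone male lies above every PBS male.

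Por, which encodes the reductase that passes electrons from NADPH to microsomal cytochromes P450, rose in males. Por read 7.57, 7.81 and 7.64 in dexamethasone males and 6.61, 6.79 and 7.22 in PBS males. It read 7.66, 7.68 and 7.87 in dexamethasone females and 7.28, 7.38 and 7.26 in PBS females. All 6 dexamethasone arrays lay above all 6 PBS arrays. The difference was 0.80 ± 0.16 in males (1.74-fold, adjusted p = 0.00552) and 0.43 ± 0.16 in females (95% interval 0.08 to 0.78, adjusted p = 0.1). Within slides it was 1.20 and 0.82 in males and 0.30 and 0.49 in females. The male call was lost with normexp (0.59, adjusted p = 0.234).

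Across the 15 probes in males 8 were called, beside 22.6% of all probes. Of these 7 rose and 1 fell, beside 10.9% and 11.7%. In females 3 were called, beside 13.7% of all probes, and 2 of them rose and 1 fell, beside 7.28% and 6.39%. The median difference of the 15 probes was 0.69 in males and 0.42 in females, and over all probes it was 0.01 and 0.04. Several of the probes read the same transcripts, so they are not independent.

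**Figure D4:**
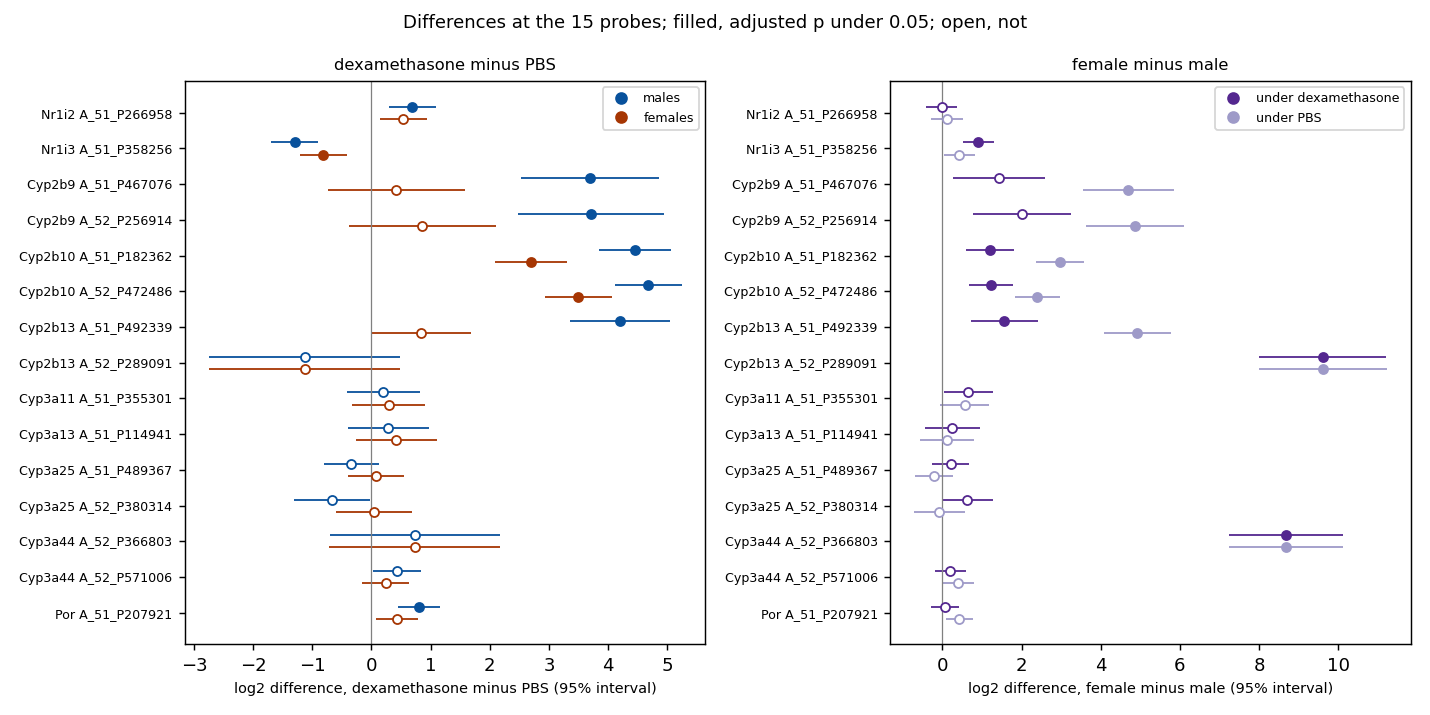
Log2 differences at the 15 probes with 95% intervals, dexamethasone minus PBS in males and females (left) and female minus male under dexamethasone and PBS (right). Filled points passed an adjusted p of 0.05. Cyp2b10 stands above 2 in both sexes on the left, Nr1i3 is below 0 in both, and the Cyp2b13 probe A_52_P289091 and the Cyp3a44 probe A_52_P366803 stand above 8 on the right.

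Some genes that work with the receptors were called, more of them in males than in females. Among 14 partners and coregulators, 4 rose, 2 fell and 8 were not called in males. In females 3 rose, 0 fell and 11 were not called (median difference 0.25 in males and 0.20 in females). Of all genes, 22.5% were called in males and 13.7% in females, and whether the list exceeded these shares was not tested. Over all genes, 10.4% rose and 12.1% fell in males, and 6.78% rose and 6.88% fell in females. Hnf4a, which is also 1 of the 8 hepatocyte markers above, a nuclear receptor needed for expression of CAR and PXR targets, read 4.36 to 4.63 in dexamethasone males and 3.52 to 3.83 in PBS males (0.87 ± 0.14, adjusted p = 0.00166), and rose by 1.02 ± 0.14 in females (adjusted p = 0.00137). Foxo1, a forkhead factor that can act as a coactivator of CAR and PXR, rose by 1.10 ± 0.21 in males (adjusted p = 0.00399) and 1.49 ± 0.21 in females (adjusted p = 0.00159). Nr0b2, which encodes the corepressor SHP, read −2.23 to −1.19 in dexamethasone males and −0.16 to 0.83 in PBS males. It fell by 1.99 in males (adjusted p = 0.00106), and in females the difference was −0.90 ± 0.28 (adjusted p = 0.0578). The steroid receptor coactivator gene Ncoa3 rose in males (0.82 ± 0.14, adjusted p = 0.00273) and differed by 0.17 ± 0.14 in females (adjusted p = 0.467). With normexp, Hnf4a passed in neither sex (0.68 and 0.81, adjusted p = 0.167 and 0.123), and Ncoa3 did not pass in males (0.64, adjusted p = 0.115).

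Of 8 genes that retain or release CAR in the cytosol, 2 rose and 1 fell in males, and 0 were called in females. Over all genes, 10.4% rose and 12.1% fell in males, and 13.7% were called in females. Dnajc7, which encodes the cytosolic CAR retention protein CCRP, rose by 0.46 ± 0.12 in males (adjusted p = 0.0181) and differed by 0.34 ± 0.12 in females (adjusted p = 0.0815). Egfr, the growth factor receptor whose signalling keeps CAR in the cytosol, rose in males (0.66 ± 0.16, adjusted p = 0.0129) and differed by 0.05 ± 0.16 in females. The male change at Dnajc7, Egfr and Ppp1r16a (−0.51 ± 0.16, adjusted p = 0.0431) was small and did not pass without male PBS array 1 (adjusted p = 0.0667, 0.0522 and 0.0994). The Ppp1r16a call was also lost with slide as a block (0.0889) and with the replicate block (0.0602). It was lost too with normexp (0.214), with no filter on dim probes (0.0646) and in a fit of the male arrays alone (0.0743). With arrays left out in turn it held in 3 of 12 fits. Ppp2ca, a catalytic subunit of protein phosphatase 2A, differed by 0.14 ± 0.13 and 0.43 ± 0.13 (adjusted p = 0.49 and 0.0513).

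Few of the other enzymes and transporters of the CAR and PXR response were called higher. Of 14 phase I enzymes, 1 rose and 4 fell in males, and 1 rose and 0 fell in females. Over all genes, 10.4% rose and 12.1% fell in males, and 6.78% rose and 6.88% fell in females. The counts of risen genes thus show nothing particular to the list. The 4 that fell in males were a larger share than over all genes, and this excess was not tested. The one that rose in both sexes was Fmo5, a flavin monooxygenase gene, by 2.36 ± 0.22 in males (adjusted p = 0.000149) and 2.69 ± 0.22 in females (adjusted p = 0.000188). The coumarin hydroxylase gene Cyp2a5 fell by 0.79 in males (adjusted p = 0.00859) and differed by 0.02 in females. Its paralog Cyp2a4, a testosterone hydroxylase gene, fell by 1.19 in males (adjusted p = 0.00534). These near-identical paralogs may share signal. The epoxide hydrolase gene Ephx1, a CAR target, fell in males by 0.49 (adjusted p = 0.0241, and 0.0535 with slide as a block).

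Of 14 phase II enzymes, 1 rose and 1 fell in males, and 1 rose and 0 fell in females. Over all genes, 10.4% rose and 12.1% fell in males, and 6.78% rose and 6.88% fell in females. Beside these shares, the counts for the phase II enzymes and for the transporters below show nothing particular to either list. Sult1d1, a sulfotransferase gene, rose by 3.09 ± 0.18 in males (adjusted p = 1.46e-05) and 2.23 ± 0.18 in females (adjusted p = 0.000158). Ugt1a1, which encodes the bilirubin glucuronosyltransferase, fell by 1.14 in males (adjusted p = 0.0304, and 0.0859 with slide as a block). The glutathione transferase genes Gstt3 and Gstm1 differed by 0.71 ± 0.24 and 0.37 ± 0.12 in males (adjusted p = 0.0528 and 0.0542). Of 9 transporters, 0 rose and 1 fell in each sex, Abcb1a, a P-glycoprotein gene (−0.92 ± 0.23 in males, adjusted p = 0.0154, and −1.41 ± 0.23 in females, adjusted p = 0.00347). With normexp the Abcb1a difference was 0.68 in males and −0.02 in females. Abcc2, an organic anion efflux pump gene, differed by 0.42 ± 0.15 and 0.45 ± 0.15 (adjusted p = 0.0762 and 0.0766). The uptake carrier gene Slco1a4 differed by 0.92 ± 0.39 and 0.43 ± 0.39 (adjusted p = 0.115 and 0.523), and Abcg2 by −0.54 ± 0.23 and 0.13 ± 0.23 (adjusted p = 0.117 and 0.763).

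In 9 genes that supply P450 enzymes with electrons and heme, 1 fell in males and 2 in females, beside 12.1% and 6.88% of all genes. Alad, the second enzyme of heme synthesis, fell by 0.38 in males (adjusted p = 0.0456) and by 0.49 in females (adjusted p = 0.0238), and Cyb5b, a cytochrome b5 gene, fell by 0.71 in females (adjusted p = 0.0294). With slide as a block neither the Alad call in males (adjusted p = 0.13) nor the Cyb5b call held (0.0642). The male Alad call was also lost with normexp (0.142), with no filter on dim probes (0.0664), in a fit of the male arrays alone (0.0559) and with the replicate block (0.0754). With arrays left out in turn it held in 3 of 12 fits. Alas1, the rate-limiting enzyme of heme synthesis and itself a CAR and PXR target, differed by 0.58 ± 0.26 in males and −0.79 ± 0.26 in females (adjusted p = 0.144 and 0.0724). Of 9 genes of the aryl hydrocarbon receptor branch, a parallel xenobiotic sensor, 2 rose in males and 1 in females. Over all genes, 10.4% and 6.78% rose. Cyp1b1 rose in both (1.20 ± 0.14, adjusted p = 0.000456, and 0.75 ± 0.14, adjusted p = 0.00737), and Cyp1a1 rose in males (1.35 ± 0.35, adjusted p = 0.0179) and differed by 1.12 ± 0.35 in females (adjusted p = 0.0561). With normexp neither Cyp1b1 call held (adjusted p = 0.26 and 0.368), nor did Cyp1a1 in males (0.169). The other Cyp2b and Cyp3a genes tested, Cyp3a41a, Cyp3a16 and Cyp2b19, were not called for dexamethasone in either sex. Dexamethasone arrays lay above PBS arrays without overlap in both sexes at Cyp3a41a and in males at Cyp3a16. The treatments overlapped in females at Cyp3a16 and in both sexes at Cyp2b19. Cyp3a41a differed by 0.49 ± 0.19 in males (adjusted p = 0.0869) and by 0.47 ± 0.19 in females (adjusted p = 0.127), and Cyp3a16 by 0.56 ± 0.27 and 0.59 ± 0.27 (adjusted p = 0.17 and 0.185).

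**Figure D5:**
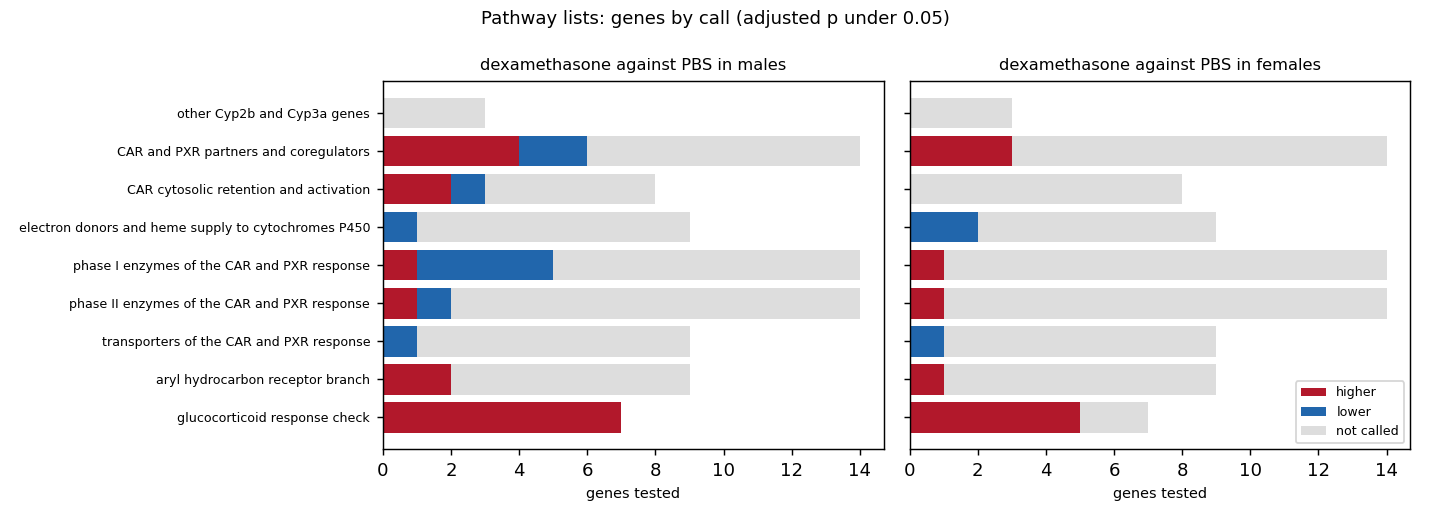
Number of genes tested in each pathway list (horizontal axis, genes), split into those called higher, those called lower and those not called, for dexamethasone against PBS in males (left) and females (right). All 7 glucocorticoid-response genes are higher in males and 5 of 7 in females, while phase I and phase II enzymes each have 1 gene higher in each sex.

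The genes whose values ran closest to each receptor or enzyme over the 12 arrays were listed by Pearson's r, as a description over arrays that share groups and slides. For Cyp2b10 (A_52_P472486) these were Morc4 (0.973), Sult1d1 (0.97) and Pdgfra (0.965). For Nr1i3 they included 0610040J01Rik (0.976) and Dusp6, a MAP kinase phosphatase gene (0.975). The shared Cyp2b13 probe A_51_P492339 ran with the shared Cyp2b9 probe (0.992), Fmo2 (0.935) and Pygo1 (0.925). Cyp3a11 ran with Arf1 (0.922), Polr1c (0.92) and its paralog Cyp3a16 (0.919). Por ran with 1810053B23Rik (0.966), Nup88 (0.934) and the urea cycle gene Ass1 (0.934), and Nr1i2 with Amy1 (0.956), Zfp131 (0.947) and Polr3e (0.942). Nr1i2 and Nr1i3 themselves correlated at −0.665.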

How the data were processed

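Livers of 12 mice, 3 in each of 4 groups, were measured on 1-colour Agilent arrays, 4 arrays on each of 3 slides. Scanner files deposited by the authors give intensities, per their headers, for which Agilent Feature Extraction 9.5 had spatial and multiplicative detrending switched on within each array. The deposited series values are the same intensities. Of 45018 spots, 1639 were controls. Signals were taken to log2 from the deposited intensities and each array's 75th percentile was subtracted. Outlier spots were left out (57 probes dropped) and spots of a probe averaged, and a probe was kept if some group had it well above background on its 3 arrays (28842 probes). Names came from the files, updated with RefSeq (GRCm38.p6). Coordinates are those of the files (mm7). One limma 3.58.1 model (R 4.3.3) of 4 group means took in the 12 arrays (8 residual degrees of freedom) for 5 comparisons, with Benjamini-Hochberg adjustment over all probes. Pathway lists used the brightest probe of each of 19340 genes, adjusted over all probes. The animal was the replicate.

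Named were all probes of the 10 genes, up to 4 genes of each pathway list with the lowest adjusted p for dexamethasone, and the 3 genes most correlated with each of 6 of the genes. One of these correlated genes is not reported here, and promoter windows are printed for 4 of the 10 genes. The genes and lists were chosen with earlier results of these data known. Replicate numbers did not pair the arrays: the correlation of same-numbered deviations was below 0.1 in 16 of 18 pairs (−0.20 to 0.28). The test was checked on simulated data. Alternatives covered quantile normalization, normexp with an offset of 50, the deposited series values, other filters, 1 probe a gene, compared groups alone, array weights, slide or replicate as a block, and leaving out each array. Figures were drawn with matplotlib, and promoter windows were aligned with biopython.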

Additional observations from a re-analysis of the deposited data

How the results depend on the processing

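With 3 arrays in each group, the number of arrays limits the precision, and at the Cyp2b13 probe A_52_P289091 and the Cyp3a44 probe A_52_P366803 male signals were low, with 1 array not well above background at A_52_P289091. Single values of the 15 probes were followed through the alternatives, and each was counted once per alternative. Outside the dexamethasone comparisons, uncalled values were followed only if at least as large as their standard error. Of called values, 475 kept their call and 41 lost it. Of uncalled values, 785 stayed uncalled, 15 passed and 13 turned sign. The cause was not tested for any change below. Probes called for dexamethasone in males numbered 8, and 7 to 8 when each array was left out in turn. In females they numbered 3, and 2 to 6, the 6 being without male PBS array 1 and the 2 without female PBS array 1. For the difference between the sexes in the effect they numbered 0, and 3 with no filter on dim probes, and 0 to 3 with arrays left out. For females against males under PBS they numbered 7, and 3 with 1 probe a gene, where fewer probes are counted. Under dexamethasone they numbered 6, and 2 with normexp, 3 with 1 probe a gene and 2 with slide as a block, and 2 to 8 with arrays left out.

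The replicate numbers do not pair the arrays. With a replicate block the counts were 8 and 3 for dexamethasone in males and females, 0 for the difference between the sexes, and 7 and 4 for females against males under PBS and dexamethasone.

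Of the values followed, those that turned sign were all uncalled in the main setting except Abcb1a in males. With normexp they were Abcb1a 0.68, Cyp3a11 −0.01, Ppp2ca −0.03 and the Cyp2b13 probe A_52_P289091 0.46 in males, and the Cyp3a25 probes A_51_P489367 −0.12 and A_52_P380314 −0.10 in females. With quantile normalization they were Cyp3a11 −0.01 and Gstm1 −0.05 in males. With array weights they were Slco1a4 −0.06 and Cyp3a25 A_51_P489367 −0.01 in females. With arrays left out, Cyp3a13 in males ranged from −0.10 to 0.53. In females Slco1a4 ranged from −0.10 to 0.73, Cyp3a25 A_51_P489367 from −0.06 to 0.23, Cyp3a25 A_52_P380314 from −0.11 to 0.30 and Cyp3a44 A_52_P366803 from −0.23 to 1.39.

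Over all probes, normexp called 1139 against 6520 for dexamethasone in males, 692 against 3944 in females, 70 against 1465 between the sexes under dexamethasone and 100 against 495 under PBS. Without male PBS array 1 the count in males was 3590. Without female PBS array 1 or female dexamethasone array 2 the count in females was 2265 or 2507. Between the sexes it was 194, 219 and 316 under PBS without male PBS array 2, male PBS array 3 or female PBS array 3. Under dexamethasone it was 851 and 805 without male dexamethasone array 1 or 2, and 615 and 790 without female dexamethasone array 1 or 2. For the difference in the effect it was 31, 6 and 4 without female dexamethasone array 3, male dexamethasone array 3 or male PBS array 1. Fits of the compared groups alone called 1969 in females, 638 between the sexes under dexamethasone and 319 under PBS. Array weights called 6002, 3078 and 975 in these comparisons. Slide as a block called 318 between the sexes under dexamethasone, and the replicate block called 949, with 320 under PBS. With no filter on dim probes, 6023 were called there under dexamethasone, and 3216 against 1 for the difference between the sexes in the effect.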

Other observations

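Some genes of the phase I list also differed between the sexes, more of them under dexamethasone than under PBS. Of 14 tested, 5 were called higher and 1 lower in females under dexamethasone, and 2 higher and 0 lower under PBS. Over all probes, 2.87% were higher and 2.21% lower under dexamethasone, and 0.596% and 1.12% under PBS. Under dexamethasone, females were above males for Cyp2a4 (2.47 ± 0.23, limma adjusted p = 0.000273), Cyp2c38 (2.41 ± 0.28, 0.00114) and Cyp2a5 (1.01 ± 0.17, 0.00928) on the log2 scale. Under PBS the same differences were 1.52 ± 0.23 (0.00831), 1.56 ± 0.28 (0.0186) and 0.19 ± 0.17 (0.701). The carboxylesterase gene Ces2c was lower in females, by −1.70 ± 0.30 under dexamethasone (0.0102) and −1.18 ± 0.30 under PBS (0.09). Only slide 1 held dexamethasone arrays of both sexes, so the differences under dexamethasone are largely also between slides. No values with slide as a block are given for these genes.

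Female PBS array 3 was the lowest of the PBS females at the Cyp3a44 probe A_52_P366803 (1.26, against 3.77 and 4.49), at Cyp3a11 (7.16, against 7.98 and 7.81), at Cyp3a16 (5.65, against 6.85 and 6.47) and at Cyp3a41a (7.70, against 8.54 and 8.37). Groups of 3 arrays were not tested for outliers.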
